A study of Mus musculus with 9 samples.

Results

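Genes of histone and DNA methylation were described here as a list of 48, chosen by symbol and all on autosomes. The list held genes classed with the enzymes that place or remove methyl groups and, among the Polycomb genes, also subunits and ligases that do neither. The classes were given by symbol, and the activity of each protein was not measured. The 48 comprised 20 histone methyltransferases, 13 histone demethylases, 10 Polycomb genes and 5 genes of DNA methylation and its oxidation. All 48 were found among the 55471 gene identifiers of the count tables, and all 48 were among the 14918 genes with enough counts to be tested. Histone methyltransferases transfer a methyl group from S-adenosylmethionine to lysines of histones, and the lysine decides whether the mark accompanies active or silent chromatin. Most demethylases, and the TET enzymes that oxidise methylated cytosine, use alpha-ketoglutarate, iron and oxygen, whereas Kdm1a and Kdm1b use flavin. In CD8+ T cells, Polycomb and DNA methyltransferases are known to silence memory genes as effector cells form.

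The cells were mouse CD8+ T cells with the OT-I receptor, which recognises a peptide of ovalbumin. The control group (4 libraries) was Bdh1-WT;shCtrl: its Bdh1 gene was intact and its hairpin RNA was directed at firefly luciferase, which mouse cells lack. The DKO group (5 libraries) was Bdh1-KO;shOxct1: a Bdh1 knockout with a hairpin RNA against Oxct1. Bdh1 and Oxct1 encode enzymes that oxidise ketone bodies, and the comparison asks what their joint loss does to transcripts. Cells of both groups were activated in culture with antibodies to CD3 and CD28 and with IL-2, transduced, sorted for the Ametrine reporter and injected into CD45.1 C57BL/6 hosts. The hosts kept their own T cells and received LmOVA, a Listeria monocytogenes strain carrying ovalbumin, 1 day later. Donor cells were recovered on day 7 of infection as CD45.2 and Ametrine positive. A hairpin RNA lowers a transcript without deleting the gene, so the second of the 2 losses is a knockdown. The labels do not say whether replicates came from separate animals or donors, so the p-values measure the spread between these libraries, which may be technical.

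Libraries held 45205993 to 59853080 counts in genes. Oxct1 fell from 63.2 ± 5.73 CPM, counts scaled to library size (SD, n = 4), to 5.16 ± 0.37 (SD, n = 5), a log2 fold change of -3.61 (adjusted p = 4.58e-09, quasi-likelihood test of edgeR, Benjamini-Hochberg). Bdh1 fell from 30.5 ± 4.16 to 10.6 ± 1.24 CPM (log2 fold change -1.52, adjusted p = 0.000136, same test). Control replicate 1 stood apart: 67% of its reads fell in genes and 16.7% were unmapped, against 10.3 to 12.3% unmapped in the other libraries. On the first principal component it lay at -79.1, and the other libraries lay between -7.3 and 23.5. Control replicate 3 stood apart on the second component, at -70.2 against -5.6 to 20.2. The counts and many of the estimates are given with and without control replicate 1, and the main counts also without control replicate 3. Of the CD8 T cell markers, 10 of 10 exceeded 1 CPM, and their sum was 10499 to 13751 CPM in control and 10317 to 11466 CPM in DKO. Cd8a was at 719.3 ± 56.3 CPM in the control libraries and 715.6 ± 33.5 in DKO, whereas Cd8b1, the other chain of the coreceptor, fell from 2247 to 1702 CPM (log2 fold change -0.40, adjusted p = 0.0428, edgeR). Of the B cell list, 2 of 10 genes exceeded 1 CPM, Ighm at 208.7 and Cd79b at 5.08 CPM in control, and Pax5, a B cell transcription factor, had 0 counts in all 9 libraries. The B cell sum was 179.6 to 265.0 CPM in control and 187.8 to 210.4 CPM in DKO. Of the CD4 T cell list, Cd4 itself was at 0.172 CPM in control, and Cd40lg and Zbtb7b were at 20.4 and 14.6 CPM. The summed level of 12 myeloid markers was 163.1 to 200.9 CPM in control and 116.3 to 129.6 CPM in DKO, and the sum of 20 cell cycle genes was 998.3 to 1180 CPM in control and 1318 to 2040 CPM in DKO. Neither pair of ranges overlapped (each p = 0.0159 by an exact permutation test, two-sided, the smallest p that relabelling 4 and 5 libraries allows, and 0.0556 after adjustment over 7 lists). Of the myeloid markers, 9 of 12 exceeded 1 CPM, and most of the sum came from 3 of them. The protease gene Ctss fell from 81.2 to 51.3 CPM and Cd68 from 29.2 to 16.8 CPM (adjusted p = 0.00734 and 0.0138 in edgeR). Itgam had means of 58.9 and 38.1 CPM in control and DKO (adjusted p = 0.148, edgeR). The median log2 fold change of the 10 myeloid markers tested was 0.22, opposite in sign to the sum, and the macrophage genes C1qa and Csf1r were at 1.13 and 1.84 CPM in control. The part of these 2 lists in the results on the 48 genes was not tested. In bulk RNA, fewer cells of a type and less RNA per cell cannot be told apart.

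None of the 48 genes passed an adjusted p of 0.05 (edgeR's quasi-likelihood test, Benjamini-Hochberg adjustment over all 14918 genes), where 2.83% of all tested genes did. At an unadjusted p of 0.05, 2 of the 48 differed, Dot1l higher and Kdm5b lower in DKO, which is 4.17% against 16% of all tested genes. DESeq2, which called 7.1% of all tested genes, also called 0 of the 48 after adjustment. Limma-voom with library quality weights, which called 6.68%, called Dot1l and Kdm5b. In DKO, 32 of the 48 estimates were above control and 16 below, with a median log2 fold change of 0.12 against -0.01 over all tested genes. Without control replicate 1, 21 were above and 27 below, and the median was -0.01, the same as over all genes. Without control replicate 3, 39 were above and 9 below, the median was 0.15, and 0 were called. In that fit the median over all tested genes was -0.01, and 2.25% of them were called. The estimates ran from -0.35 for Kdm5b to 1.00 for Suv39h2, and 41 of the 48 were smaller than 1.2-fold in either direction. The 95% confidence interval lay within a 2-fold change either way for 47 of the 48, with Suv39h2 the exception, and for 74.0% of all tested genes. It lay within 1.5-fold for 37 of the 48 and for 50.7% of all tested genes.

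**Figure D1:**
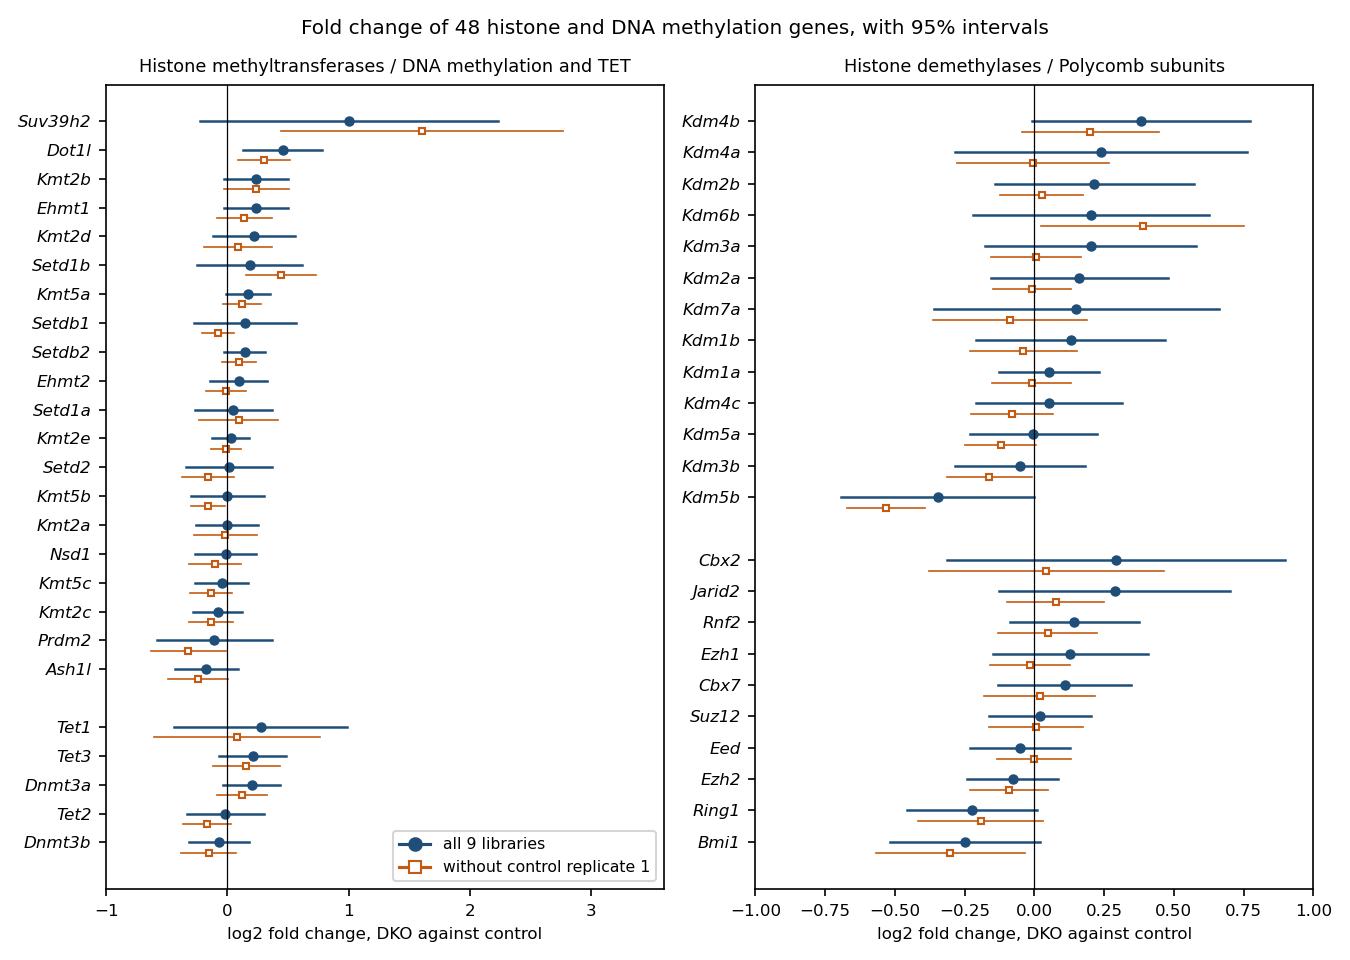
Log2 fold change, DKO against control (x axis), of each of the 48 genes by class, from all 9 libraries and without control replicate 1; points are estimates and bars are 95% confidence intervals from edgeR. With all libraries 32 estimates are above 0 and 16 below, and without control replicate 1 the counts are 21 and 27.

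Levels differed far more between the genes than between the groups. Per kilobase of exon (RPKM), the highest levels in control were those of Eed, the Polycomb subunit that binds methylated histone H3, at 35.3 RPKM, of Kmt2e at 33.9 and of Suz12, its partner in Polycomb repressive complex 2, at 29.6. The lowest were those of Tet1 at 0.19 RPKM, Suv39h2 at 0.237, Kdm6b at 0.441, Setd1a at 0.64 and Setd1b at 0.856. The median of the 48 was 7.54 RPKM in control and 8.24 RPKM in DKO, and 19 exceeded 10 RPKM and 5 were under 1 RPKM in each group. Neighbours in the order were close: in control, 5 of 47 neighbouring pairs were further apart than the larger of their 2 SDs, and in DKO 17 of 47 were.

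**Figure D2:**
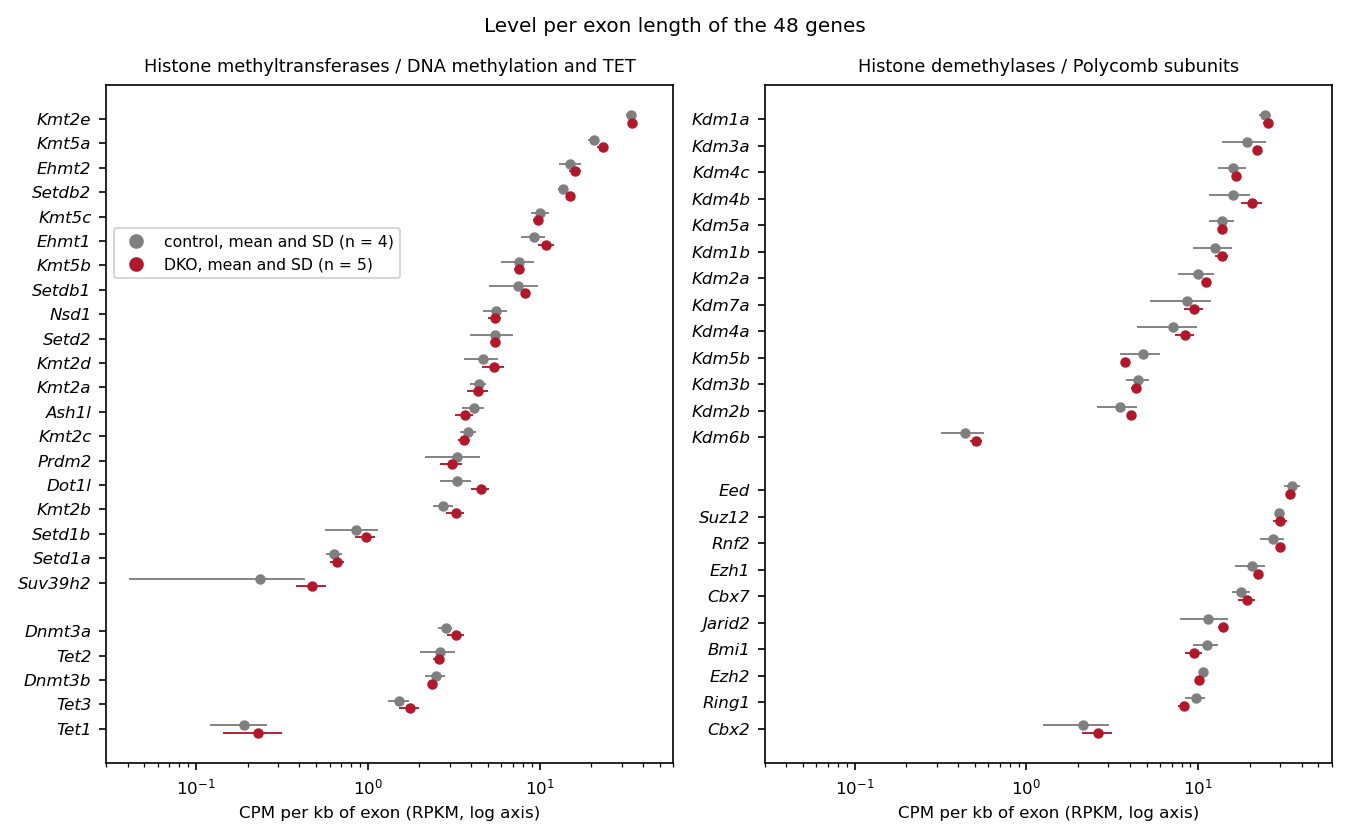
Mean level of each gene in RPKM (log axis), control and DKO, with the SD over 4 and 5 libraries as bars, ordered by class. The range runs from Tet1, at 0.19 RPKM in control, to Eed, at 35.3 RPKM, and the 2 groups lie close together for nearly every gene.

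Several paralogs kept the same order in all 9 libraries, whereas Kmt2d exceeded Kmt2c in 8 of them (0.983 times in control replicate 1). Ezh1 exceeded Ezh2, the other catalytic subunit of Polycomb repressive complex 2, by 1.36 to 2.41 times per exon length (median 2.16). The 1.36 was in control replicate 1, and the other libraries were at 1.90 or above. Cbx7 exceeded Cbx2, both readers in Polycomb repressive complex 1, by 5.50 to 15.1 times (median 7.45). Here 15.1 was the value of control replicate 1, and the other libraries were at 10.2 or below. Tet2 exceeded Tet1 by 7.31 to 21.8 times (median 12.7) and Tet3 by 1.16 to 2.12 times (median 1.57). Among the de novo DNA methyltransferases, Dnmt3a exceeded Dnmt3b by 1.07 to 1.65 times (median 1.197). These ratios rest on the annotated exons, and the transcript isoforms in use were not measured.

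Among the 20 methyltransferases, 13 estimates were above control and 7 below, with a median log2 fold change of 0.07, and 9 above and 11 below without control replicate 1 (median -0.01). Dot1l, which methylates the globular domain of histone H3 in transcribed genes (chromosome 10, 80755206 to 80795461, plus strand, GRCm38), was measured at 19.9, 31.4, 31.6 and 32.2 CPM in control replicates 1 to 4. In DKO replicates 1 to 5 it was at 43.6, 40.5, 43.9, 34.2 and 35.04 CPM. Each DKO library was above each control library, and control replicate 1 was the lowest of all. The means were 28.8 ± 5.93 CPM (SD, n = 4) and 39.5 ± 4.62 CPM (SD, n = 5), a log2 fold change of 0.46 (adjusted p = 0.146 by the same edgeR test, SE 0.15). Leaving out control replicate 1 gave 0.30 (adjusted p = 0.103, edgeR), and limma-voom gave 0.38 (adjusted p = 0.0466). Setdb2, a relative of the histone H3 lysine 9 methyltransferases (chromosome 14, 59402009 to 59440884, minus strand), was the other gene whose groups did not overlap. Of all tested genes, 8.71% did not overlap, 4.62% with DKO higher and 4.09% with DKO lower. Setdb2 was at 50.7, 55.8, 56.7 and 56.9 CPM in control and at 60.5, 57.6, 57.3, 65.3 and 63.1 CPM in DKO. The gap was small: the highest control and the lowest DKO library were nearly equal, and the log2 fold change was 0.14 (adjusted p = 0.410 in edgeR, SE 0.08), and 0.09 without control replicate 1.

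The largest estimate belonged to the methyltransferase with the fewest reads. Suv39h2, which trimethylates lysine 9 of histone H3 in heterochromatin, had 105, 61, 3 and 50 counts in control replicates 1 to 4 and 89, 164, 84, 107 and 99 counts in DKO. In CPM this was 2.17, 1.07, 0.0664 and 0.879 against 1.76, 2.78, 1.77, 2.08 and 2.10. Control replicate 1 lay within the DKO range and control replicate 3 was close to 0. The log2 fold change of 1.00 had a 95% confidence interval of -0.22 to 2.23 (adjusted p = 0.416, edgeR), it was 1.60 without control replicate 1 (adjusted p = 0.111, edgeR), and 0.62 without control replicate 3 (adjusted p = 0.335, edgeR). Suv39h2 overlaps Dclre1c on the opposite strand, and reads in such overlaps are left out of unstranded counts. With the counts of both strand settings added, the log2 fold change was 0.52 and the counts were 2.33 times as large. The libraries were not stranded, so reads in the overlap enter this sum whichever gene they came from. The sum is therefore not a measure of Suv39h2 alone. Other members also share bases with a gene on the opposite strand, among them Kmt2a, Kmt2e, Kmt5b, Ash1l, Kdm3b, Ezh2 and Eed. For Setdb1, Kdm1b, Kdm2b, Kdm6b and Kdm7a, which share bases too, the added counts were 1.12 to 1.79 times the unstranded ones. For Eed they were 1.09 times.

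Setdb1, the methyltransferase that silences endogenous retroviruses, was at 27.1, 60.7, 58.5 and 57.7 CPM in control and at 59.1, 57.8, 54.2, 54.3 and 56.2 CPM in DKO. Apart from control replicate 1, the lowest, the groups overlapped. The log2 fold change was 0.14 with that library and -0.08 without it (adjusted p = 0.765 and 0.513, edgeR). Kmt2a, which methylates lysine 4 of histone H3 at promoters, was at 73.8, 77.0, 81.1 and 62.2 CPM in control and at 69.9, 71.8, 70.2, 91.2 and 63.1 CPM in DKO. Its groups overlapped, with DKO replicate 4 above every control library. The log2 fold change of Kmt2a was -0.01 (95% confidence interval -0.26 to 0.25), -0.02 without control replicate 1 and -0.097 without DKO replicate 4. Ehmt2, which with Ehmt1 mono- and dimethylates lysine 9 of histone H3, was at 66.5, 81.1, 93.4 and 90.8 CPM in control and at 82.7, 96.9, 94.9, 85.4 and 83.1 CPM in DKO. Control replicate 1 was again the lowest, and the log2 fold change was 0.09 with it and -0.01 without it. Kmt5a, the monomethyltransferase of lysine 20 of histone H4, was at 100.6, 115.5, 116.8 and 106.2 CPM in control and at 124.0, 129.2, 125.98, 108.2 and 130.9 CPM in DKO. Of the DKO libraries, 4 of 5 exceeded every control library, and the log2 fold change was 0.17 (adjusted p = 0.347 in edgeR, SE 0.08).

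Without control replicate 1, 9 of the 48 genes had an unadjusted p under 0.05, against 20% of all tested genes, and 5 of the 9 were methyltransferases. In 6 of the 48 the 3 control and 5 DKO libraries then had no overlap (Suv39h2, Dot1l, Setdb2, Setd1b and Kdm6b higher and Kdm5b lower in DKO), against 14.3% of all tested genes. Setd1b, a methyltransferase of lysine 4 of histone H3, was at 8.85, 8.74 and 8.11 CPM in control replicates 2 to 4 and at 9.76 to 13.7 CPM in DKO, and these did not overlap. Control replicate 1, at 15.6 CPM, exceeded all of them. The log2 fold change was 0.44 without that library (adjusted p = 0.0816, edgeR) and 0.18 with it (adjusted p = 0.700, edgeR). The other 4 methyltransferases were Suv39h2 and Dot1l, higher in DKO, and Kmt5b and Prdm2, lower in DKO.

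Among the 13 demethylases, 10 estimates were above control and 3 below, with a median log2 fold change of 0.15, and without control replicate 1 the counts were 4 and 9 with a median of -0.01. Kdm5b, which removes methyl groups from lysine 4 of histone H3 (chromosome 1, 134560171 to 134635285, plus strand), was at 48.7 CPM in control replicate 1 and at 83.1, 87.2 and 95.3 CPM in control replicates 2 to 4. In DKO replicates 1 to 5 it was at 63.9, 62.9, 63.1, 58.2 and 60.6 CPM. The 5 DKO libraries lay close together, below 3 control libraries and above control replicate 1. With all libraries the log2 fold change was -0.35 (adjusted p = 0.311 by the same edgeR test, SE 0.16). Without control replicate 1 it was -0.53 (adjusted p = 0.00132 in edgeR, SE 0.06), with a control mean of 88.5 ± 6.21 CPM (SD, n = 3) against 61.8 ± 2.33 CPM (SD, n = 5). In that fit 4.93% of all tested genes were called, and Kdm5b was the only one of the 48. The limma-voom fit, in which control replicate 1 had a weight of 0.137 and the other libraries 0.644 to 2.31, gave -0.45 (adjusted p = 0.00833). With any other library left out, the adjusted p was 0.407 to 0.514 (edgeR). The level of Kdm5b relative to its paralog Kdm5a is given as a description, and it was not tested. Per exon length, Kdm5a was at 3.64, 2.81, 3.03 and 2.52 times Kdm5b in control and at 3.56 to 3.86 times in DKO. On this ratio control replicate 1 lay within the DKO range and the other 3 control libraries lay below it. Kdm5a itself was at 151.7 to 225.7 CPM in control and 184.7 to 203.9 CPM in DKO (95% confidence interval of the log2 fold change -0.23 to 0.22).

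Kdm6b, the demethylase that removes the Polycomb mark from lysine 27 of histone H3, was at 4.25, 3.10, 2.43 and 2.48 CPM in control and at 3.56, 3.34, 3.76, 3.84 and 3.15 CPM in DKO. Control replicate 1 was the highest library and the other 3 control libraries were below all 5 DKO libraries. The log2 fold change was 0.20 with control replicate 1 (adjusted p = 0.660, edgeR) and 0.39 without it (adjusted p = 0.218, edgeR). It was 0.11 without control replicate 3 and 0.12 without control replicate 4. Kdm1a, the flavin-dependent demethylase, was at 113.6, 128.0, 135.6 and 130.4 CPM in control and at 129.7, 132.9, 133.8, 118.2 and 143.2 CPM in DKO. These ranges overlapped, with a log2 fold change of 0.05 (95% confidence interval -0.13 to 0.23), and of -0.01 without control replicate 1. Kdm4b, which acts on lysine 9 of histone H3, had the largest estimate above 0 in the class, 0.38 (95% confidence interval -0.01 to 0.77), and 0.20 without control replicate 1. Kdm3b and Kdm6b joined Kdm5b at an unadjusted p under 0.05 without that library, the first lower and the second higher in DKO.

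**Figure D3:**
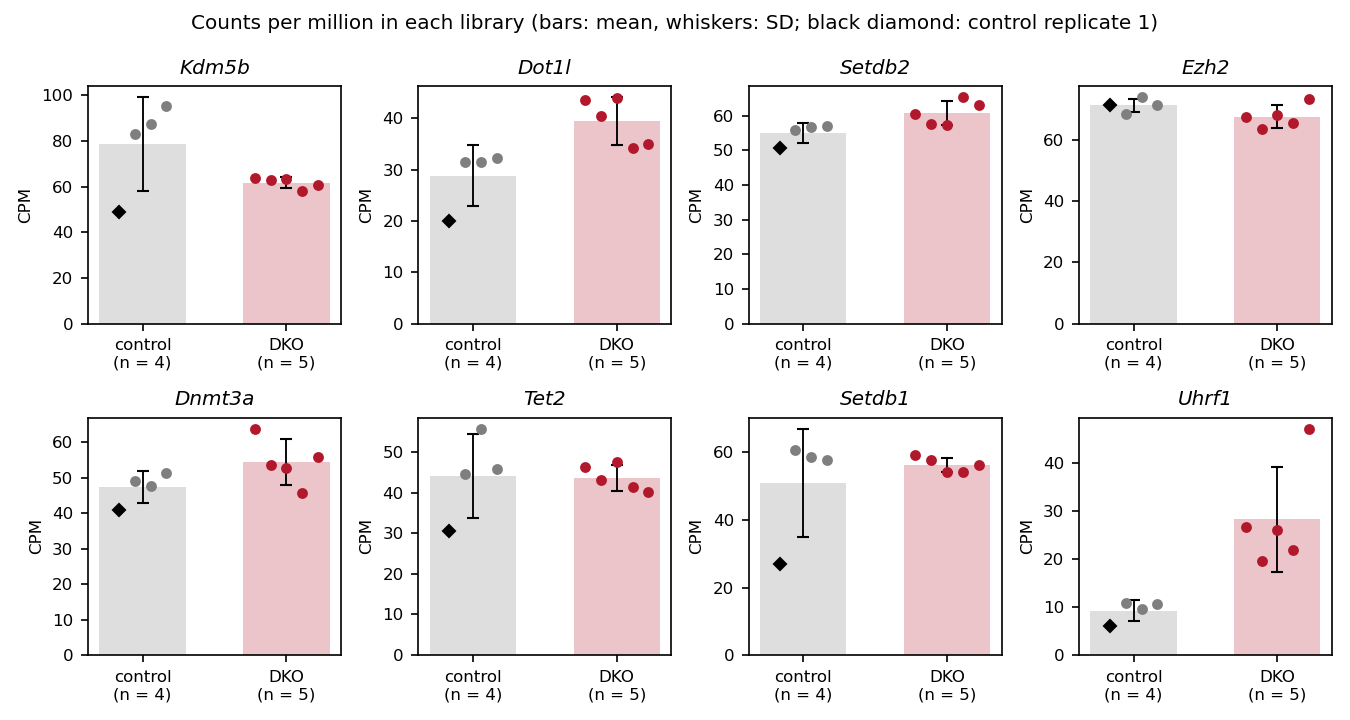
CPM (y axis, from 0) in each library of Kdm5b, Dot1l, Setdb2, Ezh2, Dnmt3a, Tet2, Setdb1 and Uhrf1. Points are libraries, with control replicate 1 as a black diamond, bars are group means and whiskers are SDs (4 control and 5 DKO libraries). Control replicate 1 is the lowest of 9 libraries for every gene shown except Ezh2, and the DKO libraries of Kdm5b lie between 58.2 and 63.9 CPM.

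Among the 10 Polycomb genes, 6 estimates were above control and 4 below, with a median log2 fold change of 0.06, and 5 and 5 without control replicate 1 (median 0.00). Ezh2, the catalytic subunit that dividing T cells raise on activation, was at 71.5, 68.7, 74.1 and 71.6 CPM in control and at 67.5, 63.6, 68.3, 65.6 and 73.6 CPM in DKO. The ranges were narrow and overlapped only through DKO replicate 5, the other DKO libraries being below every control library. The Ezh2 log2 fold change of -0.08 had a 95% confidence interval of -0.24 to 0.08. Its core partners were as close: Eed had a log2 fold change of -0.05 and Suz12 of 0.02. Jarid2, which helps to recruit the complex, stood at 0.29 with all libraries and at 0.08 without control replicate 1. In Polycomb repressive complex 1, which ubiquitinates histone H2A, the ligase Rnf2 was at 0.14 (0.05 without control replicate 1) and its paralog Ring1 at -0.22, and Bmi1 at -0.25. Bmi1 was at 38.1 to 54.7 CPM in control and 32.3 to 43.0 CPM in DKO, overlapping, with an adjusted p of 0.355 (edgeR), and it was the Polycomb gene among the 9 with an unadjusted p under 0.05 without control replicate 1.

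The 5 genes of DNA methylation gave 3 estimates above and 2 below control, with a median log2 fold change of 0.20, and of 0.08 without control replicate 1. Dnmt3a, the de novo methyltransferase, was at 41.0, 49.2, 47.7 and 51.4 CPM in control and at 63.8, 53.5, 52.8, 45.8 and 55.8 CPM in DKO. Of the DKO libraries, 4 of 5 were above all control libraries, and DKO replicate 4 lay among them. The log2 fold change was 0.20 (adjusted p = 0.394 in edgeR, SE 0.11, 95% confidence interval -0.03 to 0.43). It was 0.12 without control replicate 1 and 0.14 without DKO replicate 1. Tet2, which oxidises methylated cytosine, was at 30.5, 44.8, 55.8 and 45.9 CPM in control and at 46.35, 43.2, 47.6, 41.4 and 40.2 CPM in DKO. The DKO libraries lay within the control range, and the log2 fold change was -0.02 (95% confidence interval -0.33 to 0.30), -0.17 without control replicate 1 and 0.11 without control replicate 3. Dnmt3b was at -0.07, Tet1 at 0.27 and Tet3 at 0.21, and the interval of each held 0. Without control replicate 1 they were at -0.16, 0.08 and 0.16.

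Control replicate 1 was low for most of the 48 genes. Measured from the median of the 9 libraries on the log2 CPM scale, the 48 genes had a median of -0.35 in control replicate 1 and of -0.07 to 0.06 in the other 8 libraries. It was the lowest of 9 libraries for 34 of the 48, against 29.5% of all tested genes, and more than 0.5 below the median for 20 of the 48, against 21.2% of all tested genes. The demethylases stood lowest there, at a median of -0.75, with 12 of 13 lowest in that library. The methyltransferases had a median of -0.23, the Polycomb genes of -0.18 and the DNA methylation genes of -0.33. In 14 of the 48, control replicate 1 was under 60% of the mean of the other control libraries, and 8 of the 14 were demethylases. Of all tested genes, 16.1% met the same limit. Cbx2 was at 39.3% of that mean, Kdm4a at 40.5% and Kdm7a at 41.9%. Kmt2a, Ezh2 and Suz12 were at 100.4%, 100.1% and 99.7%, and Suv39h2, Setd1b and Kdm6b were above it, at 322.7%, 182.6% and 159.1%.

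**Figure D4:**
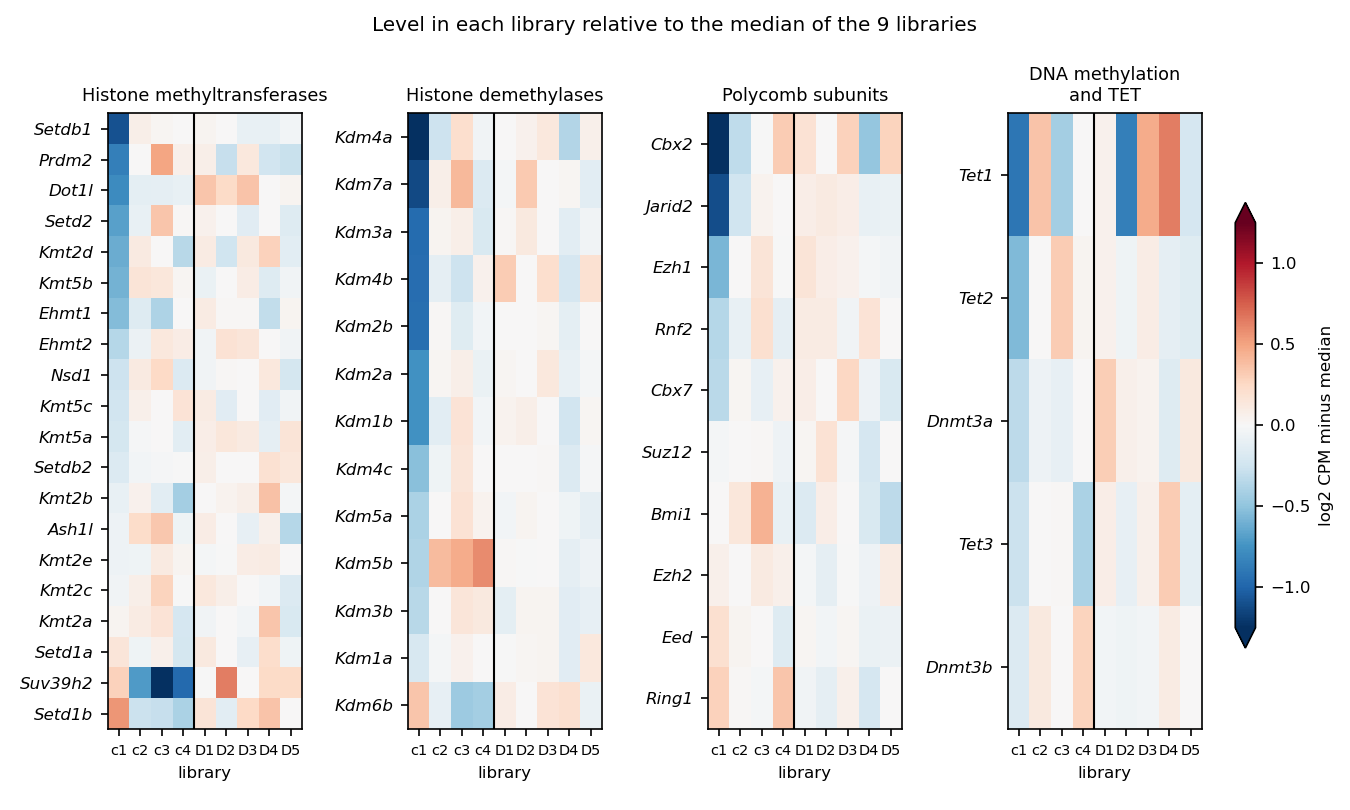
Log2 CPM of each gene (rows, by class) in each of the 9 libraries (columns), minus the gene's median over the libraries, as colour. The column of control replicate 1 is mostly below 0, with the demethylases at a median of -0.75, and the medians of the other columns lie between -0.07 and 0.06.

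These genes have long summed exons in the annotation, and length moved with that library. Their median exon length was 7778 bases (3243 to 20291), against 3608 bases for all tested genes, and 29 of the 48 lay in the longest of 5 equal bins of all tested genes. Over these bins, from shortest to longest, the median deviation of control replicate 1 was 0.39, 0.17, 0.00, -0.18 and -0.35. The deviation of the 48 genes there, -0.35, was that of the longest bin, although 11 of the 48 lay in the bin at -0.18 and 8 in the bin at 0.00. The demethylases lay further below. With a trend in length removed from each library, an alternative chosen after seeing the data, the median log2 fold change of the 48 was 0.05, with 28 above and 20 below. In that fit 3.83% of all tested genes were called, and of the 48 it called Kdm5b (-0.40, adjusted p = 0.0484, edgeR), while Dot1l was at 0.40 (adjusted p = 0.0553, edgeR). What set control replicate 1 apart was not tested.

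**Figure D5:**
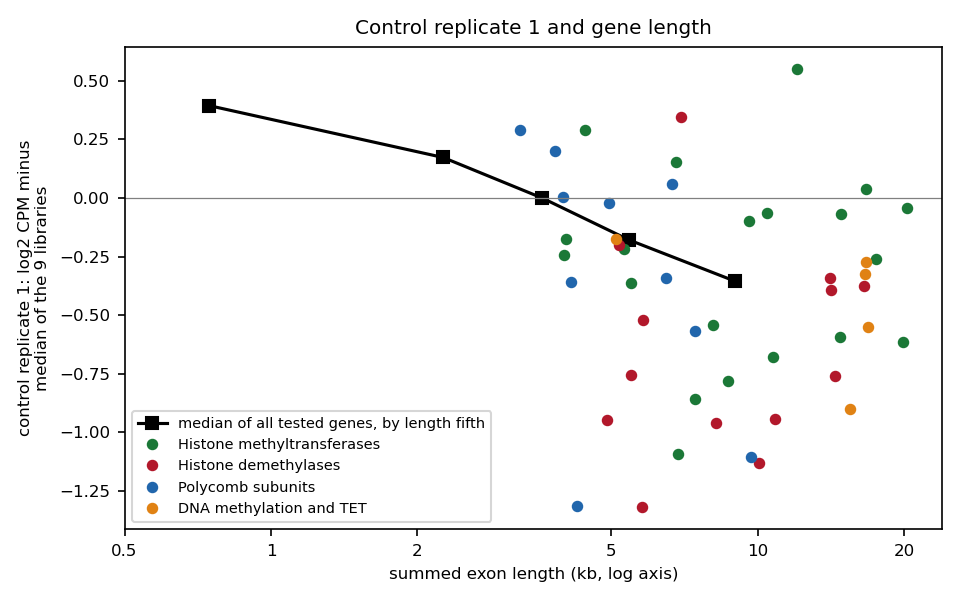
Deviation of control replicate 1 from the median of 9 libraries (log2 CPM, y axis) against exon length (log axis), for the 48 genes by class, with the medians of 5 length bins of all tested genes as squares. These medians descend from 0.39 to -0.35 with length, and 29 of the 48 genes lie in the longest bin.

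Replicates of these genes were tight apart from that library. The median coefficient of variation of the 48 was 16.5% over 4 control libraries, 9.66% without control replicate 1 and 7.68% over the 5 DKO libraries. Over all tested genes it was 20.9%, 12.5% and 11.7%.

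Beyond the 48, 102 other genes of histone and DNA methylation were listed, and 96 of them were tested. Of the 96, 1 rose and none fell (edgeR's quasi-likelihood test, adjusted p of 0.05), where 1.32% of all tested genes rose and 1.51% fell, and 18 had an unadjusted p under 0.05, 13 higher and 5 lower, which is 18.8% against 16% of all tested genes. The median log2 fold change was 0.06. The gene that rose was Uhrf1, which reads hemimethylated DNA behind the replication fork and recruits the maintenance methyltransferase (chromosome 17, 56303321 to 56323486, plus strand). It was at 6.09, 10.9, 9.51 and 10.6 CPM in control and at 26.7, 19.7, 26.1, 21.9 and 47.2 CPM in DKO. The groups were far apart, and DKO replicate 5 was the highest. The means were 9.29 ± 2.22 CPM (SD, n = 4) and 28.3 ± 10.96 CPM (SD, n = 5), a log2 fold change of 1.61 (adjusted p = 0.00949 in edgeR, SE 0.26). Under all 17 alternative settings it passed, at log2 fold changes of 1.34 to 1.71 and adjusted p of 7.13e-08 to 0.0460. Uhrf1 is itself transcribed mainly in dividing cells, and 13 of the 20 cell cycle genes rose with it and 0 fell. DKO replicate 5 was also the highest library on their sum, and their part in the value of Uhrf1 was not tested.

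By group, the related methyltransferases had 7 of 16 estimates above control, the arginine methyltransferases 2 of 8, and the subunits of the COMPASS and MLL complexes, which activate the Kmt2 enzymes, 9 of 11. Among related demethylases the count was 5 of 9, among related Polycomb subunits 15 of 24, among readers of methylated histones and DNA 11 of 16, and among enzymes of S-adenosylmethionine and alpha-ketoglutarate metabolism 7 of 12. Of all tested genes, 48.6% were above control. Without control replicate 1 the counts were 7, 3, 10, 5, 13, 9 and 5 in the same order, against 48.3% of all tested genes. With all 9 libraries, no gene of these groups apart from Uhrf1 was called. Nsd3, a methyltransferase of lysine 36 of histone H3, had the next smallest p and is named here after its values were seen. It was at 172.6, 219.3, 253.5 and 243.9 CPM in control and at 169.8, 175.7, 167.3, 151.2 and 162.9 CPM in DKO. As for Kdm5b, 3 control libraries lay above all DKO libraries, here with control replicate 1 in the DKO range. The log2 fold change was -0.43 (adjusted p = 0.0623 in edgeR, SE 0.11), and -0.54 without control replicate 1 (adjusted p = 0.00132, edgeR). It was past the threshold in 5 of 17 alternative settings, against 3 of 17 for Kdm5b and 1 of 17 for Dot1l.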

How the data were processed

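RNA of 9 libraries, 4 control and 5 DKO, was compared by the groups the labels give. Per the labels' protocols, polyA RNA was prepared with Takara Smartseq v4 and Illumina Nextera Flex. The authors deposited unnormalised counts per gene, 1 table per library in STAR's layout, with an unstranded column and 1 for each strand; the submitters' processing notes name STAR 2.7.8a, Trim Galore 0.6.0 and mm10. The unstranded counts were used, since 49.9 to 50.1% of stranded counts fell in the first strand column. Rows without a gene did not enter totals or tests: unmapped (10.3 to 16.7%), multimapping (5.80 to 6.79%), no feature (4.01 to 5.20%) and ambiguous reads (4.97 to 5.31%). Totals in genes were 45205993 to 59853080. Of 55471 identifiers, 55230 matched GENCODE M21 (GRCm38), the source of symbols, exon lengths and coordinates. No pair of libraries of a group was a duplicate.

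The test was the robust quasi-likelihood test of edgeR 4.0.16 (R 4.3.3) after TMM scaling, with filterByExpr defaults (minimum count 10, minimum total 15) and Benjamini-Hochberg adjustment over 14918 genes at 0.05. CPM and RPKM (CPM per kilobase of summed exons) were computed here from the deposited counts. Deviations used log2 CPM with a prior count of 2. Marker sums were tested by exact permutation (scipy 1.17.1). Values in every library are given for genes past an adjusted or unadjusted p of 0.05, for genes whose groups did not overlap, and in any case for Ezh2, Suv39h2, Dnmt3a, Tet2, Kdm6b, Kdm1a, Ehmt2, Setdb1, Kmt2a and Kmt5a; other values were chosen after they were seen. The 48 genes and the other lists were chosen with earlier results of these data known. Marker lists were CD8 T, B cell, myeloid, erythroid and platelet, CD4 T, NK and cell cycle genes. Alternatives were DESeq2 1.42.0, its size factors in edgeR, limma-voom (limma 3.58.1), the replicate number as a block, counts summed over both strand columns, no filter, a filter of 1 CPM in 4 libraries, and leaving out each library. A fit with the trend in exon length taken out (lowess, span 0.3) was chosen after seeing the data. Promoter words were to be searched in those of the 48 genes past the threshold, and none of the 48 passed. The tests were also run on simulated counts. No library was set apart in these and no trend with length was added, so they do not cover the behaviour of control replicate 1. Tables were made with Python 3.11.15, numpy 2.4.6 and pandas 2.3.3 and figures with matplotlib 3.10.9.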

Additional observations from a re-analysis of the deposited data

Results flagged for a closer look

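Among 112 groups of 4 or 5 libraries checked (the 48 genes, Uhrf1 and the marker sums), 10 held a library far from the others by Dixon's test at its 95% level. Chance gives about 1 in 20 groups, and 7.78% of the groups of all tested genes met it. Control replicate 1 was the library in 3 of them. It was low for Setdb1, at 27.1 CPM against 57.7 to 60.7 in the other control libraries, and low for Dot1l, at 19.9 against 31.4 to 32.2. It was high for Setd1b, at 15.6 CPM against 8.11 to 8.85.

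DKO replicate 4 was the library in 5. It was low for Ehmt1, at 72.9 CPM against 90.7 to 97.0 in the other DKO libraries, for the demethylase Kdm1b, at 64.3 against 76.1 to 79.8, for Kdm2b, at 40.9 against 44.5 to 45.2, and for Kdm4c, at 87.2 against 97.4 to 99.0. It was high for Kmt2b, a methyltransferase of lysine 4 of histone H3, at 37.6 CPM against 28.6 to 30.6. DKO replicate 5 was the library in the other 2: Uhrf1 stood at 47.2 CPM against 19.7 to 26.7, and the sum of the 20 cell cycle genes at 2040 CPM against 1318 to 1524.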

How the results depend on the processing

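Of the 48 genes, edgeR called 0, and the length trend removal called 1 (Kdm5b), limma-voom 2 (Dot1l and Kdm5b) and the fits that left out 1 library 0 to 1 (Kdm5b, without control replicate 1); the other alternatives called 0. Over all tested genes, 422 were called, against 749 without control replicate 1, 179 to 342 without any other library, 996 by limma-voom, 1059 by DESeq2 and 67 with the replicate block. Of the related genes, 1 was called, and DESeq2 called 7, limma-voom 5, the length trend removal 3, the stricter filter 3, the sum of the strand columns 2, and the fits without 1 library 1 to 3, with Uhrf1 among them each time. The median log2 fold change of the 48 ran from -0.01 to 0.15 over the fits that left out 1 library.

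With the replicate number as a block, 67 of all tested genes were called, with Uhrf1 among them (1.36, adjusted p = 0.0460, edgeR) and 0 of the 48. Same-numbered libraries did not deviate together (correlations -0.117 to 0.012), no control library correlated best with the DKO library of its own number, and the numbers were not taken to pair the libraries. Over 17 alternatives for each of 14 named genes, 218 values kept their direction and their side of the threshold, 4 moved past it (Kdm5b 3 times, Dot1l once) and 16 changed sign, all at estimates that did not pass. Kmt2a was at 0.040 with the block and at -0.097 to 0.046 over the fits without 1 library, and Tet2 at 0.040 and at -0.17 to 0.11. Setdb1 was at -0.036 by limma-voom and at -0.079 to 0.24 without 1 library, Ehmt2 at -0.0099 to 0.16 and Kdm1a at -0.010 to 0.088. The difference of the erythroid and platelet sums, 1.39 CPM, ran from -3.24 to 6.33. The causes were not tested. In 37 of the 48 genes the 95% confidence interval lay within 1.5-fold, and in the others it did not exclude a difference of that size.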
